A study of Homo sapiens with 16 samples.

Results

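DUX4 and 9 genes known as its targets in the cleavage-stage embryo, 10 of the 59081 genes in the deposited table, were followed across 16 RNA-seq libraries of U2OS cells, a human osteosarcoma line. The genes were ZSCAN4, TRIM43, TRIM43B, TRIM48, TRIM49, TRIM51, PRAMEF12, KDM4E and H3Y1 beside DUX4 itself, and they were picked by symbol for rising with INDY and falling with harmine. All 10 were higher with INDY than with DMSO, by a median log2 difference of 1.64. With harmine, 9 of them were lower on average than with water and DUX4 was not, so the label held for DUX4 in only 1 of its 2 directions. Since the effects of the compounds chose these genes, those effects are given as a description with no test.

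The study asked whether blocking DYRK1A, a kinase needed for assembly of the DREAM repressor complex, changes transcription in quiescent cells. Confluent U2OS cells were kept without serum for 48 h, and for the last 24 h they received 10 µM harmine hydrochloride, its vehicle water, 25 µM INDY, or its vehicle DMSO. Each of these 4 groups had 4 libraries of poly(A)-selected RNA. Harmine, a beta-carboline alkaloid, and INDY, a benzothiazole, were given at different doses and in different vehicles, so each was compared with its own vehicle. The labels name no other treatment or genetic change. Whether the 4 libraries of a group are separate cultures is not stated, and p-values therefore cover only library-to-library spread, which could be technical.

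DUX4 is a double homeobox transcription factor encoded in a tandem repeat array near the end of the long arm of chromosome 4. It is known to act briefly in the cleavage-stage embryo, when the embryonic genome is first transcribed, and to be silenced in most somatic tissues, and its misexpression in muscle is known from facioscapulohumeral muscular dystrophy. Among its known targets are the zinc-finger factor ZSCAN4, members of the TRIM and PRAME families that exist as many related copies, a histone demethylase and a histone H3 variant.

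DUX4 binds a pair of homeobox half-sites, and a simple form of that motif, TAA followed by any 3 bases and then AATCA, was searched on both strands in the RefSeq promoter windows (GRCh38.p14, 250 bases before to 50 after the start site). RefSeq windows were matched for 7 of the 10 genes. The motif was found in 3 of these 7 windows (42.9%), in 13 of 58 windows of other cleavage-stage genes (22.4%) and in 312 of 35116 windows of all genes (0.888%). Related genes often held the same letters, so their windows are not independent. MBD3L2, MBD3L2B, MBD3L3, MBD3L4 and MBD3L5 all held TGATTGCATTA, a match on the opposite strand. PRAMEF7, PRAMEF8, TRIM49B and TRIM49D2 all held TAATTTAATCA. For the 3 genes among the 10 with a match, the 250 bases before the start site are shown because they carry the motif, which is in capitals. They lie at chr5:17655850-17656099 on the minus strand for H3Y1, at chr11:55261905-55262154 on the plus strand for TRIM48 and at chr11:55883047-55883296 on the plus strand for TRIM51.
H3Y1: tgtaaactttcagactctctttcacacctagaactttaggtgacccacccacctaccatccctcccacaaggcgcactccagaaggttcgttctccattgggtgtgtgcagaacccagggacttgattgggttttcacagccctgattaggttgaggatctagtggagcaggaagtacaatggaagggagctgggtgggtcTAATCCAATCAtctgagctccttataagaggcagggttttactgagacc
TRIM48: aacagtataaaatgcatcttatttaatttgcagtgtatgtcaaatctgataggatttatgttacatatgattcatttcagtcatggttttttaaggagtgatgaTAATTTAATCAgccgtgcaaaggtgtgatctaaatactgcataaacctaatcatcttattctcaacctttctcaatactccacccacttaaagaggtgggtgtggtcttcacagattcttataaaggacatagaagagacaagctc
TRIM51: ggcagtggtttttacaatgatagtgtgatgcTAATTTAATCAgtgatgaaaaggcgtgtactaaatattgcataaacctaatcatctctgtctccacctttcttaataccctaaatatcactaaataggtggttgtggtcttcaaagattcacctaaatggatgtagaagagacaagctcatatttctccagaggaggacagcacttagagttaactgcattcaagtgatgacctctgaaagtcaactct
The match began 49 bases before the start site in H3Y1, 146 in TRIM48 and 219 in TRIM51. TRIM48 and TRIM51 held the same letters, TAATTTAATCA, and H3Y1 held TAATCCAATCA. A match is a run of letters and not a measured binding site, and its absence from the windows of DUX4, ZSCAN4, TRIM49 and PRAMEF12 concerns only these letters in these windows.

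The libraries held 44301910 to 65889667 estimated counts, their TMM scaling factors ran from 0.982 to 1.02, and mitochondrial genes took 2.61 to 3.49% of counts. A low-count filter kept 20446 genes, all 10 described here among them. DUX4 was over the filter's level of 0.191 CPM (estimated counts scaled to the TMM-adjusted library total) in 12 of the 16 libraries, including all 4 INDY libraries but only 2 water libraries, and the other 9 genes were over it in all 16. Of the osteoblast markers, SPARC, COL1A1 and RUNX2 were expressed (684, 144 and 31.5 CPM in DMSO), whereas SP7, IBSP, COL1A2 and BGLAP had at most 18.2 estimated counts in any library.

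DUX4 (chromosome 4, 190173774 to 190185942, plus strand in GENCODE 44, 2 exons) was the least abundant of the 10. Its level was 0.214, 0.0776, 0.313 and 0.14 CPM in the 4 water libraries and 0.389, 0.169, 0.648 and 0.438 CPM with harmine. In DMSO it was 0.244, 0.477, 0.171 and 0.28 CPM, and with INDY it was 1.12, 1.85, 2.83 and 2.09 CPM. Every INDY library was above every other library, while the water, harmine and DMSO libraries overlapped. The log2 difference of INDY from DMSO was 2.77 (SE 0.37), that of harmine from water was 1.12 (SE 0.46), and the harmine mean was the higher.

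How reads were divided among DUX4 copies bears on these values. Of the stretches of 100 bases in the DUX4 transcript, 58.1% also occurred in transcripts of other genes, and 15 other DUX4-named rows of the table shared such a stretch. The row named DUX4 took between 7.92% (water replicate 2) and 77.1% (INDY replicate 3) of the counts of these copies. Which other copy took most counts changed between libraries, from DUX4L24 in water replicate 2 to DUX4L7 in INDY replicate 1 and DUX4L10 in INDY replicate 2. Summed over all 16 rows, the level was 1.03 ± 0.103 CPM in water, 0.951 ± 0.25 with harmine, 0.898 ± 0.034 in DMSO and 2.95 ± 0.482 with INDY (SD, n = 4). On the sum, the log2 difference was 1.73 (SE 0.16) for INDY and -0.11 (SE 0.17) for harmine. DUX4L26, the most counted other row in 10 of the 16 libraries, holds only 3.44% of the DUX4 stretches. Without it, the sum of 15 rows was 0.648 ± 0.0708 CPM in water, 0.685 ± 0.161 with harmine, 0.514 ± 0.0452 in DMSO and 2.55 ± 0.408 with INDY (SD, n = 4), with log2 differences of 2.30 (SE 0.17) for INDY and 0.08 (SE 0.18) for harmine. The higher mean of the DUX4 row with harmine was thus small or absent on either sum. The INDY libraries were apart from all others on both sums, at 2.58 to 3.66 CPM against 0.658 to 1.24 CPM elsewhere with DUX4L26 included.

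**Figure D1:**
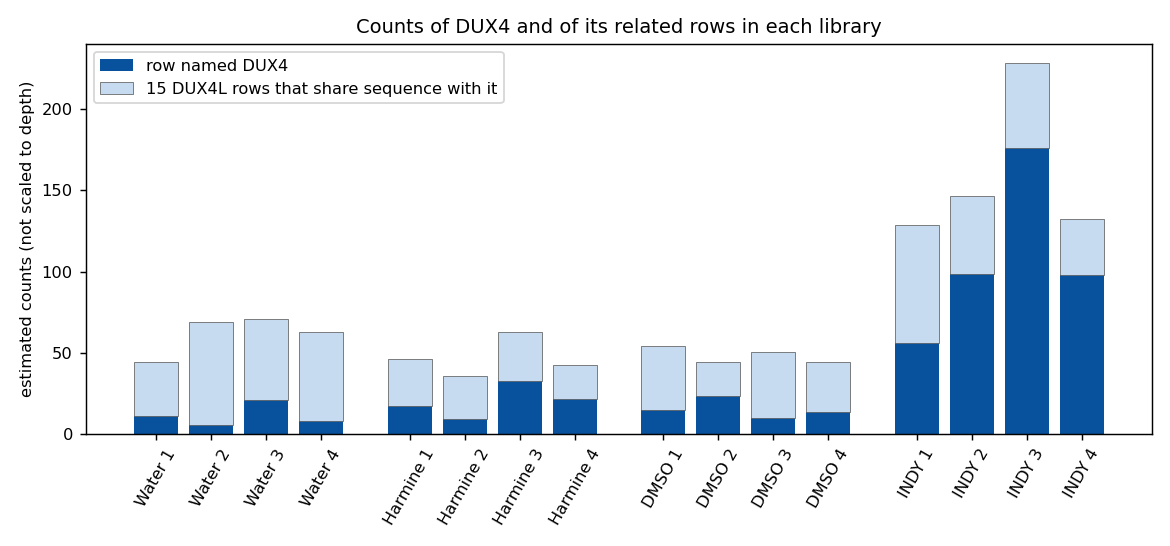
Estimated counts, not scaled to depth, of the row named DUX4 (dark) and of the 15 copies that share sequence with it (light), stacked for each library. The INDY bars reach 128.8 to 228.7 counts and all other bars stay at or below 70.4, and the dark share varies between libraries of 1 group.

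ZSCAN4, a zinc-finger protein known for telomere maintenance in early embryos and stem cells (chromosome 19, 57668935 to 57679152), shared no stretch of 100 bases with another gene. Its level was 10.7, 8.95, 9.21 and 11.7 CPM in water and 8.97, 7.39, 6.79 and 7.63 CPM with harmine. It was 6.94, 6.6, 7.15 and 7.13 CPM in DMSO and 23.3, 21.4, 25.6 and 24.5 CPM with INDY. INDY stood apart by a log2 difference of 1.77 (SE 0.09), a 3.41-fold higher level. Harmine was lower by a small amount, with a log2 difference of -0.40 (SE 0.09), and its highest library lay just above the lowest water library, so these groups touched.

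The TRIM genes encode proteins with a RING finger, a domain typical of ubiquitin ligases, and lie on chromosomes 2 and 11. TRIM43 (chromosome 2, 95592001 to 95599778) was at 20.1, 18.1, 16.5 and 22.5 CPM in water and at 9.34, 6.62, 6.83 and 6.33 CPM with harmine. In DMSO it was at 14.1, 11.7, 12.9 and 10.9 CPM, and with INDY at 40.4, 36.5, 37.4 and 40 CPM. No 2 of these 4 groups overlapped: INDY was highest, then water, DMSO and harmine. The log2 difference was -1.41 (SE 0.11) for harmine and 1.63 (SE 0.1) for INDY.

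TRIM43B (chromosome 2, 95477008 to 95484754, minus strand) shared 63.2% of its stretches with TRIM43, so reads may be split between them. It was at 17.5, 17.5, 14.9 and 20.6 CPM in water, 7.92, 6.98, 6.59 and 6.61 CPM with harmine, 11.2, 10.9, 10.7 and 10.3 CPM in DMSO and 36.7, 29.6, 33.2 and 33 CPM with INDY. The same order without overlap was seen as for TRIM43. Summing the pair gave log2 differences of -1.37 (SE 0.09) for harmine and 1.63 (SE 0.09) for INDY, close to those of either row.

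TRIM48 and TRIM51 lie near each other on chromosome 11 (55262155 to 55271114 and 55883297 to 55891810), and both carry the motif shown above. TRIM48 had 6.41, 4.82, 5.24 and 5.82 CPM in water, 4.19, 3.24, 3.51 and 3.27 CPM with harmine, 3.78, 3.9, 4.12 and 3.75 CPM in DMSO and 14.2, 11.4, 12.8 and 13.1 CPM with INDY. TRIM51 had 2.84, 2.59, 2.53 and 3.24 CPM in water, 2.13, 1.88, 1.86 and 1.97 CPM with harmine, 1.82, 1.87, 1.56 and 1.23 CPM in DMSO and 4.44, 3.49, 4.5 and 3.97 CPM with INDY. In both genes the INDY libraries were above and the harmine libraries below those of the matching vehicle, whereas harmine and DMSO overlapped. The INDY log2 difference was 1.73 (SE 0.09) for TRIM48 and 1.33 (SE 0.13) for TRIM51. The harmine log2 difference was -0.65 (SE 0.1) for TRIM48 and -0.51 (SE 0.13) for TRIM51.

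TRIM49 (chromosome 11, 89797655 to 89808575, minus strand) shared 68.4% of its stretches with TRIM49C. It was at 3.13, 3.26, 2.88 and 3.47 CPM in water, 2.68, 1.99, 1.65 and 2.07 CPM with harmine, 2.03, 1.53, 1.88 and 1.64 CPM in DMSO and 7.16, 7.1, 7.23 and 6.73 CPM with INDY. INDY was apart from DMSO by a log2 difference of 1.99 (SE 0.12), and harmine from water by -0.61 (SE 0.12). The sum of TRIM48, TRIM49 and their TRIM49 relatives, 6 rows in all of which TRIM48 shares only 1.54% of its stretches with such relatives, gave log2 differences of 1.84 (SE 0.08) for INDY and -0.53 (SE 0.08) for harmine.

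PRAMEF12 (chromosome 1, 12773738 to 12777906) belongs to the PRAME family of leucine-rich repeat proteins and shared no stretch of 100 bases with another gene. Its level was 7.73, 7.18, 6.53 and 8.38 CPM in water, 3.39, 2.6, 2.33 and 2.67 CPM with harmine, 4.99, 4.63, 4.66 and 3.7 CPM in DMSO and 15.3, 12.1, 14.4 and 14.9 CPM with INDY. The 4 groups did not overlap, and the harmine log2 difference of -1.44 (SE 0.12) was the lowest of the 10 genes. The INDY log2 difference was 1.65 (SE 0.11).

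KDM4E (chromosome 11, 95025258 to 95027596, 1 exon) belongs to the KDM4 family of histone H3 lysine demethylases. Its level was 2.62, 2.36, 2.07 and 2.42 CPM in water, 1.26, 1.15, 1 and 1.08 CPM with harmine, 1.3, 1.45, 1.27 and 0.926 CPM in DMSO and 2.86, 2.66, 3.47 and 3.46 CPM with INDY. Harmine and DMSO overlapped near the bottom, and INDY and water were each apart from the group below. The log2 difference was -1.08 (SE 0.14) for harmine and 1.33 (SE 0.13) for INDY.

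H3Y1 (chromosome 5, 17654868 to 17655849, minus strand, 1 exon) encodes a primate variant of histone H3. It was the most abundant of the 10, at 31.4, 26.6, 26.9 and 32.3 CPM in water and 26.6, 25.5, 23.3 and 22.8 CPM in DMSO. Harmine libraries held 12.7, 12.9, 15.7 and 13.8 CPM and INDY libraries 77.3, 67.5, 80.1 and 73.3 CPM. Both compounds were apart from their vehicle, by a log2 difference of -1.08 (SE 0.08) for harmine and 1.60 (SE 0.07) for INDY.

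**Figure D2:**
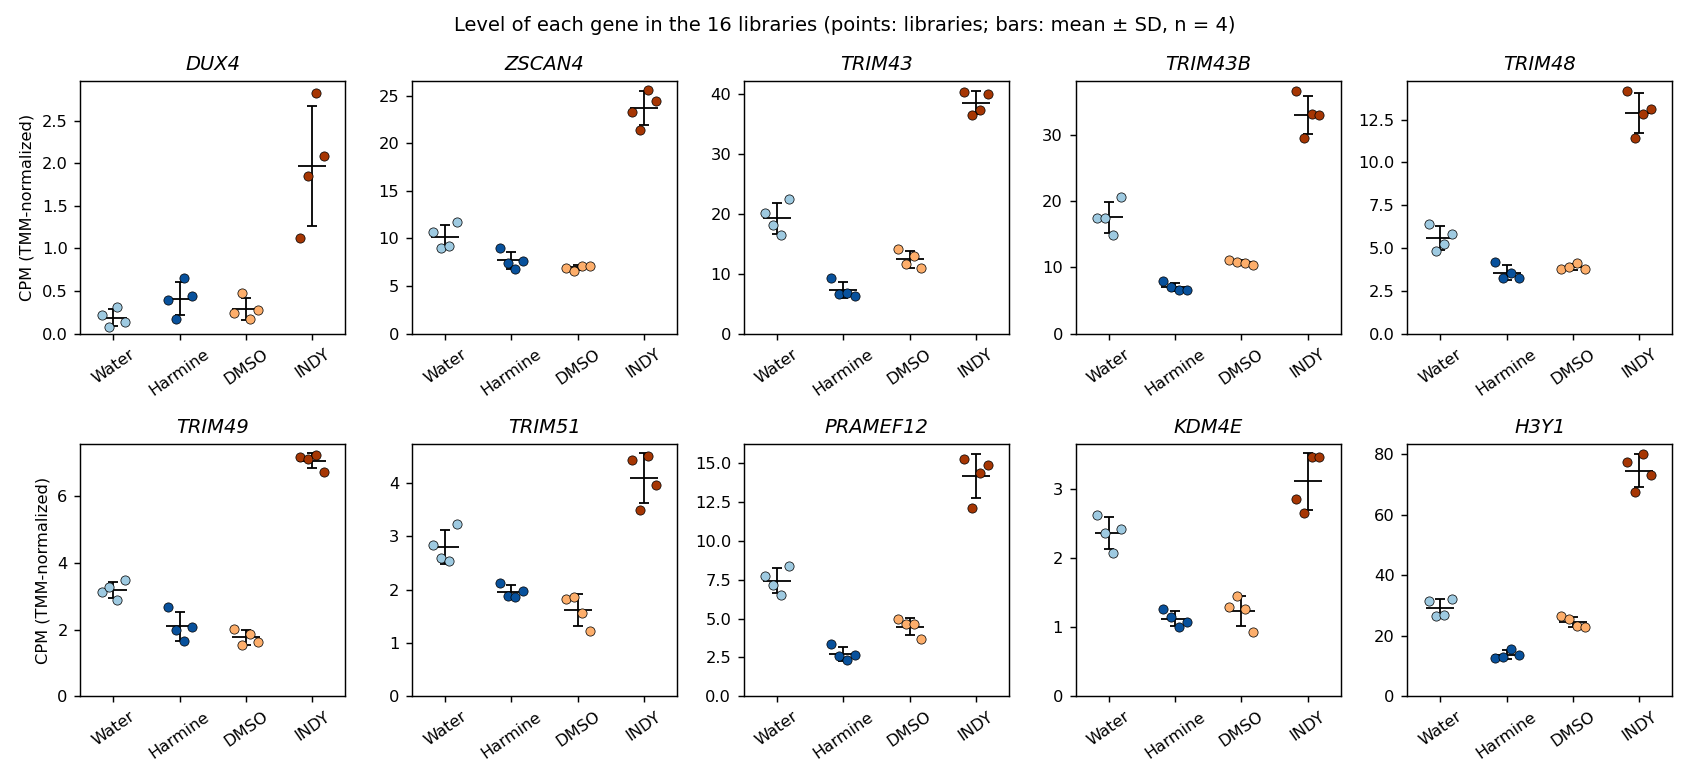
Level in TMM-normalized CPM (vertical axes, each from 0) of the 10 genes in the 4 groups. Points are libraries and bars are mean ± SD (n = 4). INDY lies above the other groups in every panel. The harmine mean lies below the water mean in every panel except that of DUX4, where the harmine mean of 0.411 CPM is above the water mean of 0.186 CPM. In ZSCAN4 the harmine and water libraries overlap.

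Across the set, INDY libraries lay above all DMSO libraries for 10 of 10 genes, where 33.4% of all genes tested did so and 34.1% did the opposite. Harmine libraries lay below all water libraries for 8 of 10 genes, the exceptions being DUX4 and ZSCAN4, where 26.4% of all genes did so and 28.6% did the opposite. These counts follow from how the genes were picked and nothing is read from them. The INDY log2 differences kept to a narrow range, 1.33 to 1.99 without DUX4, while those of harmine ran from -0.40 in ZSCAN4 to -1.44 in PRAMEF12. Among all genes tested, 931 (4.55%) were called lower with harmine and higher with INDY, at an adjusted p under 0.01 in each.

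**Figure D3:**
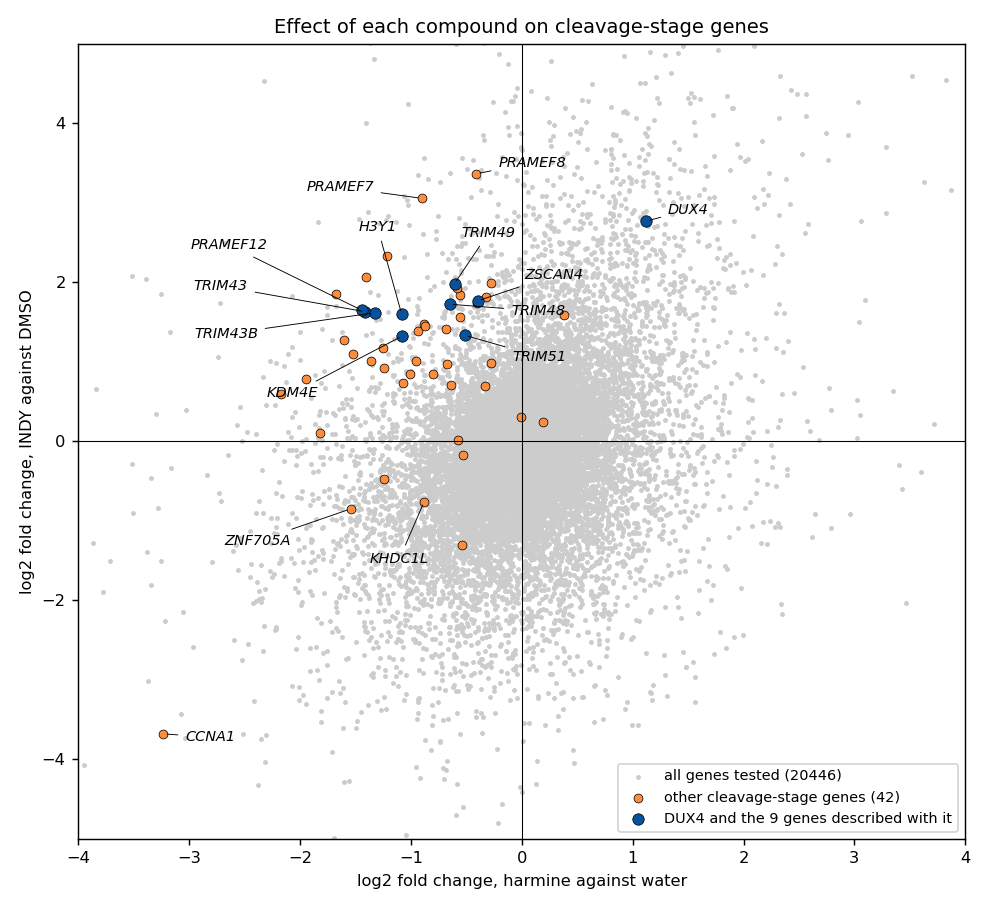
Log2 fold change of harmine against water (horizontal) and of INDY against DMSO (vertical) for 20446 genes (grey), other cleavage-stage genes (orange) and the 10 genes described (blue). Of the 10, all but DUX4 sit at upper left, and 72 genes lie outside the axes.

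Per kilobase of transcript, which allows genes to be compared, H3Y1 was at 29.8 CPM per kilobase in water, TRIM43 at 11.4 and TRIM43B at 10.7. ZSCAN4 (4.51), TRIM48 (3.8), PRAMEF12 (2.58), TRIM51 (1.72), TRIM49 (1.47) and KDM4E (1.01) followed, and DUX4 was at 0.109. With INDY, H3Y1 remained the highest (75.9) and DUX4 the lowest (1.15). In each of the 4 groups the single DUX4 row had the lowest level per kilobase. This order depends on the division of reads, since DUX4 and its copies without DUX4L26 summed to 1.49 CPM per kilobase of DUX4 transcript with INDY, where KDM4E was at 1.33, and to 0.379 in water, below KDM4E.

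The vehicles differed as well. For 9 of 10 genes all DMSO libraries were below all water libraries, where 10.2% of all genes tested were so and 9.76% were the opposite, DUX4 being the exception. In H3Y1 the highest DMSO library and the lowest water library were both 26.6 CPM after rounding. The median log2 difference of DMSO from water was -0.67 over the 10 genes against 0.00 over all genes. Single values ran from -0.93 in KDM4E to -0.25 in H3Y1, with 0.62 (SE 0.48) in the row named DUX4. On the sums of DUX4 and its copies it was -0.20 (SE 0.17) with DUX4L26 and -0.31 (SE 0.19) without it, so the sign for DUX4 depends on the division of reads. The DMSO and water libraries are the same ones against which the genes were picked, so the values are not independent of the choice and carry no test. Harmine and DMSO libraries overlapped in DUX4, ZSCAN4, TRIM48, TRIM49, TRIM51 and KDM4E. In TRIM43, TRIM43B, PRAMEF12 and H3Y1 the harmine libraries lay below those of every other group. How often this holds among all genes was not counted, so nothing is read from it.

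The genes also moved together from library to library inside a group. Water replicate 4 was the highest water library for 7 of the 10 genes, and water replicate 3 the lowest for 6. Harmine replicate 1 was the highest for 8 and harmine replicate 3 the lowest for 6. DMSO replicate 4 was the lowest for 7, and INDY replicate 2 was the lowest for 8. After each group's mean was taken away, the 36 pairs of genes without DUX4 had a median Pearson r of 0.60 over 16 libraries, and 35 of the 36 were above 0. TRIM43 and PRAMEF12, which share no stretch of 100 bases, had the highest value, 0.86, and TRIM43 and TRIM43B, which do share sequence, had 0.81. The 9 pairs with DUX4 had a median of -0.02, with 4 above 0. They rest on the single DUX4 row, which had low counts (5.5 to 176.3) and a varying share of the counts of its copies. No correlation was made on the sums, so these pairs do not show whether DUX4 varied with the other genes. The points of each correlation share a library, its depth and its scaling. Pairs of other genes were not measured in this way, so the values do not show a trait particular to these genes.

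**Figure D4:**
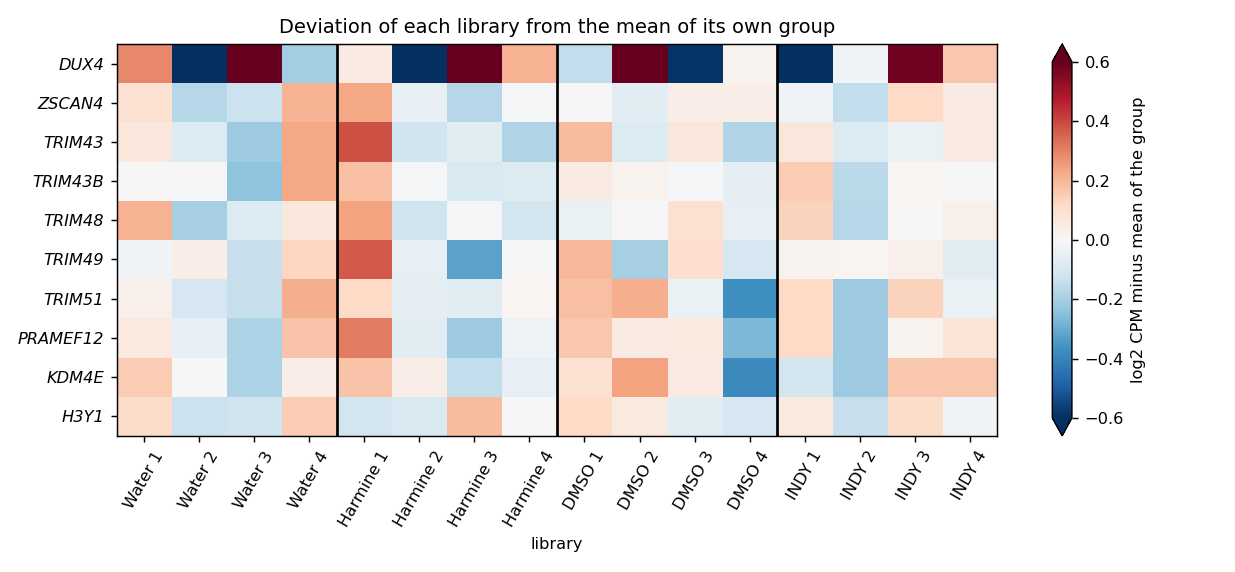
Deviation of each library (columns, grouped by treatment) from the mean of its own group, in log2 CPM, for each gene (rows), with the colour scale ending at 0.6 either side of 0. Columns such as Harmine 1 and INDY 2 have 1 colour over most rows. The single DUX4 row, which had low counts, departs from such columns, as in Water 3 where it lies 0.77 above its mean.

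The genes most like the set were those with the highest Pearson r, over the 16 libraries, with the mean standardized log2 CPM of the 10 genes. Among 16251 genes compared, these were TRIM53CP (0.987), CPA4 (0.986), TRIM49B (0.984), FAM136A (0.981), CHORDC1 (0.981), TNIP2 (0.980), TRIM49C (0.979) and MAP2K7 (0.979). TRIM53CP, TRIM49B and TRIM49C are TRIM relatives, and the other 5 are not. CPA4, a carboxypeptidase, was at 56.6 ± 6.67 CPM in water, 41.9 ± 0.904 with harmine, 45.7 ± 2.21 in DMSO and 91.0 ± 6.47 with INDY (SD, n = 4). With group means taken away, the highest were TRIM49D1 (0.911), DUXAP8 (0.903), ANKRD22 (0.903), TAF2 (0.901) and TRIM49C (0.900). ANKRD22 shared the variation inside groups but not the direction between them, since it was at 5.55 ± 1.06 CPM in DMSO and 3.10 ± 0.63 with INDY. DUXAP8 also departed, at 213 ± 9.66 CPM in water and 243 ± 7.6 with harmine, and TAF2 was not called with harmine (log2 fold change -0.06).

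Other genes of the cleavage-stage programme were taken from a list of 72, of which 70 were in the table and 42 passed the low-count filter. With harmine 28 of the 42 fell and 0 rose (edgeR quasi-likelihood test, adjusted p under 0.01), where 47.7% of all genes were called, 22.8% falling and 24.9% rising. With INDY 28 rose and 3 fell, where 66.6% of all genes were called, 33.2% rising and 33.4% falling. The harmine effect was below the INDY effect in 30 genes and above it in 0 by the interaction term, where 54.5% of all genes were called, 26.4% below and 28.1% above. Between DMSO and water 10 were lower and 0 higher, where 4.29% of all genes were called, 2.71% lower and 1.58% higher. The median log2 fold change was -0.88 for harmine and 1.01 for INDY, beside 0.02 and -0.01 over all genes. Both a fall with harmine and a rise with INDY were called in 20 genes, where 4.55% of all genes had both. Of these 20, 11 were PRAMEF and 5 TRIM genes, many of which share sequence. Of the 36 genes that share no stretch with the 10, 24 fell with harmine and 22 rose with INDY. The list holds relatives of the 10 genes and was chosen with results of these data known.

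By family, the PRAMEF genes were the most numerous. Of 16 PRAMEF genes, 12 fell with harmine and 13 rose with INDY, where 22.8% of all genes fell and 33.2% rose. PRAMEF25 shared 96.5% of its stretches with other PRAMEF genes, PRAMEF6 83.7% and PRAMEF5 78%. Among these 16, only PRAMEF20 shared none. The division of reads may vary between libraries, and PRAMEF25 ran from 0 to 4.51 CPM with INDY. The 12 and 13 calls are therefore not independent of each other. PRAMEF8 had the highest INDY effect of the list, from 2.16 ± 0.318 CPM in DMSO to 22.2 ± 2.54 CPM with INDY (SD, n = 4), a log2 fold change of 3.37 (SE 0.12, edgeR adjusted p = 2.86e-14). PRAMEF7 rose from 0.458 ± 0.112 to 3.85 ± 0.471 CPM, a log2 fold change of 3.06 (SE 0.21, edgeR adjusted p = 2.05e-10). PRAMEF8 shared 72.9% of its stretches with PRAMEF7, so reads may be split between them, and their summed counts rose with INDY by 3.32 (SE 0.12) and fell with harmine by 0.49 (SE 0.13) on the log2 scale. Their promoter windows both held the motif TAATTTAATCA.

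Of 6 TRIM genes tested, 5 fell with harmine and all 6 rose with INDY. Of 5 MBD3L genes, relatives of a methyl-CpG binding protein, 4 fell with harmine and 2 rose with INDY. MBD3L5 was at 0.355 ± 0.131 CPM in water and 0.0922 ± 0.0539 CPM with harmine, a log2 fold change of -1.95 (SE 0.44). MBD3L3 fell from 0.911 ± 0.35 to 0.258 ± 0.192 CPM, a log2 fold change of -1.82 (SE 0.47, edgeR adjusted p = 0.00288). Both were low, at no more than 1.38 CPM in any water library, and no harmine library of MBD3L5 reached the filter's level. MBD3L5 reached it in 3 water, 1 DMSO and 4 INDY libraries, and so passed the filter only through groups where it was higher. Its harmine call is no support for a change, although it is among the 4 falls counted. MBD3L5 shared 83.2% and MBD3L3 57% of their stretches with other MBD3L genes. The counts of 5 such rows together fell with harmine by 1.62 (SE 0.17) and rose with INDY by 1.12 (SE 0.16) on the log2 scale. MBD3L2 was the most abundant of these rows, at 5.59 CPM with INDY, and was called alone with INDY (1.27). MBD3L5 (0.78) and MBD3L3 (0.1) were not called alone with INDY, so the sum does not show that they rose.

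The 3 genes that fell with INDY departed from the set. CCNA1, the germline A-type cyclin, was at 0.444 ± 0.175 CPM in water and 0.0436 ± 0.0432 with harmine, and at 0.51 ± 0.246 CPM in DMSO and 0.0381 ± 0.0273 with INDY (SD, n = 4). It passed the low-count filter through the vehicle libraries alone, so it could be tested only by being high there. Its 2 calls are no support for a change, although they are among the falls counted for the list. KHDC1L and ZNF705A fell with INDY by 0.76 and 0.85 on the log2 scale. Homeobox genes of the early embryo were low, with at most 3 estimated counts in any library for DUXA, 12 for DUXB, 15 for LEUTX, 12.9 for TPRX1, 1 for DPRX and 0 for ARGFX. CPHXL reached 24 counts and was at 0.334 CPM in water, above the single DUX4 row there, and 0.0848 CPM with INDY, with neither compound called.

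**Figure D5:**
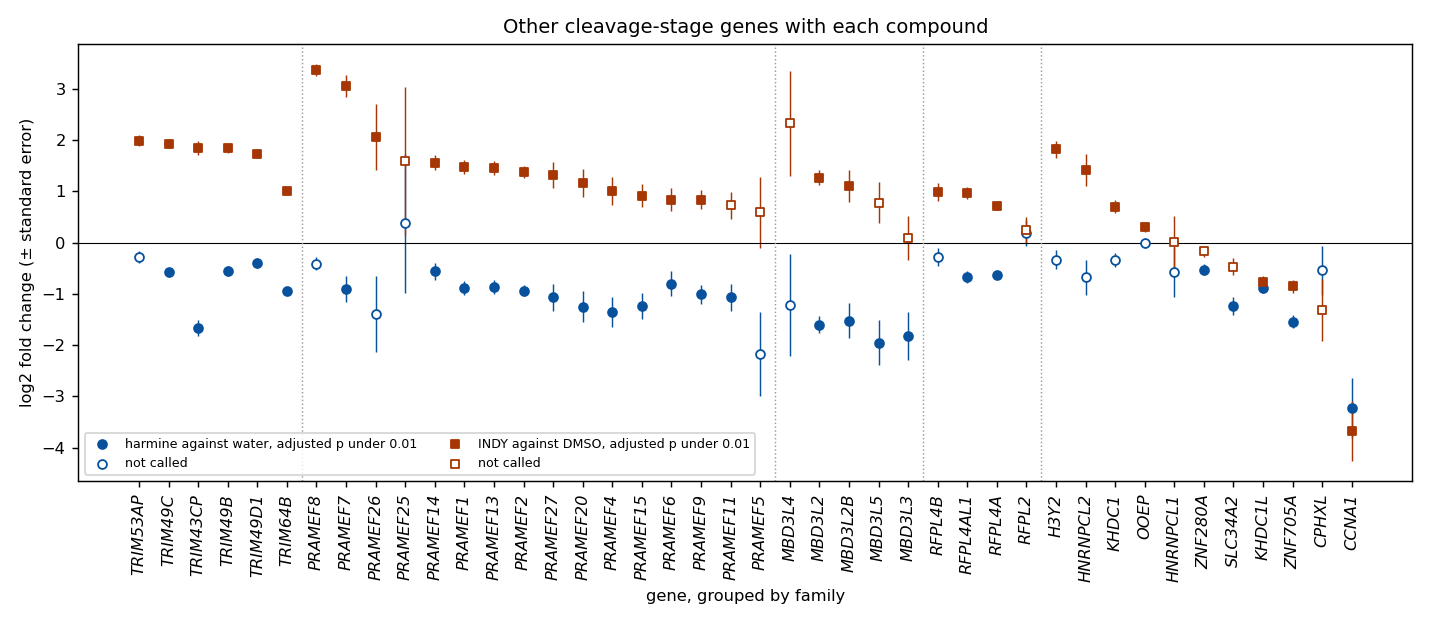
Log2 fold change (± SE) of the 42 tested cleavage-stage genes with harmine against water (circles) and INDY against DMSO (squares), grouped by family, with filled symbols for an adjusted p under 0.01. No filled circle lies above 0, and the filled squares below 0 are KHDC1L, ZNF705A and CCNA1.

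Genes known for keeping DUX4 silent were counted the same way. Of 33 tested, 16 rose and 5 fell with harmine, and 21 rose and 6 fell with INDY (edgeR, adjusted p under 0.01), with median log2 fold changes of 0.13 and 0.23. Over all genes 24.9% rose and 22.8% fell with harmine, and 33.2% rose and 33.4% fell with INDY. SMCHD1, a chromatin protein of the repeat array, had a log2 fold change of 0.32 after harmine and of -0.15 after INDY. The chromatin assembly subunits CHAF1B and CHAF1A rose with harmine by 0.89 and 0.65, and the histone methyltransferase SUV39H1 by 0.84. With INDY, heterochromatin protein CBX5 rose by 0.93 and the corepressor TRIM28 by 0.63, while L3MBTL2, a subunit of a Polycomb complex, fell from 40.4 ± 0.887 to 18.5 ± 0.502 CPM (SD, n = 4), a log2 fold change of -1.13 (SE 0.04, edgeR adjusted p = 1.64e-14). The changes of SUV39H1, CHAF1A, TRIM28 and CBX5 had 1 direction with both compounds.

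The pluripotency and inducer genes were mostly absent. Of 14, 3 passed the filter, and POU5F1, NANOG, DPPA3, DPPA4 and DPPA5 had at most 3 estimated counts in any library. LIN28B fell with harmine by 0.48 on the log2 scale, SOX2 fell with INDY by 1.35, and DPPA2, which is known to act upstream of the mouse counterpart of DUX4, was not called (-0.26 with harmine and 0.09 with INDY). For the lists that follow, 47.7% of all genes tested were called with harmine (24.9% rising, 22.8% falling). With INDY 66.6% were called (33.2% rising, 33.4% falling).

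Of 18 germline genes tested, 1 rose and 6 fell with harmine, and 5 rose and 6 fell with INDY. With harmine, PIWIL2, a Piwi protein, fell by 2.30 on the log2 scale and HORMAD1, a meiotic chromosome axis protein, by 0.69, while the meiotic recombinase DMC1 rose by 0.91. With INDY, SYCP2, a synaptonemal complex protein, fell by 1.19. SYCP3, another, was at 0.0268 ± 0.0231 CPM in DMSO and 0.277 ± 0.0739 with INDY, and TDRD1 at 0.188 ± 0.03 and 0.0107 ± 0.0214 CPM (SD, n = 4). SYCP3 passed the filter through INDY alone and TDRD1 through water and DMSO alone, so their calls are no support for a change. Both calls are nevertheless among those counted for INDY above.

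Of 10 tested relatives of KDM4E and H3Y1, 1 rose and 4 fell with harmine, and 1 rose and 2 fell with INDY. KDM4F and KDM4D are neighbours of KDM4E on chromosome 11. KDM4F, which shares sequence with KDM4E, fell with harmine by 1.54 on the log2 scale and was not called with INDY (0.43). KDM4D rose with harmine (log2 fold change 1.1) and fell with INDY (-0.57), the reverse of KDM4E. KDM4C fell with both (-0.39 and -0.45), KDM4A fell with harmine (-0.24) and rose with INDY (0.13), and the histone gene H3C10 fell with harmine (-0.89).

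Markers of other cell types moved with the compounds in both directions. Summed over 9 osteoblast markers the level was 860 to 949 CPM in water, 1110 to 1140 with harmine, 824 to 904 in DMSO and 584 to 695 with INDY, most of it SPARC. With harmine SPARC (0.43) and RUNX2 (0.58) rose, while SPP1 (-0.82), ALPL (-0.34) and COL1A1 (-0.33) fell on the log2 scale. With INDY ALPL (-2.29), RUNX2 (-0.53), SPARC (-0.44) and COL1A1 (-0.36) fell and SPP1 (0.65) rose.

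Summed over 8 blood markers the level was 0.626 to 0.684 CPM in water, 0.489 to 1.1 with harmine, 0.359 to 0.538 in DMSO and 1.39 to 2.59 with INDY. Only CD14 and PTPRC were called, both with INDY and in opposite directions. CD14 was at 0.0664 ± 0.0463 CPM in DMSO and 1.5 ± 0.527 with INDY, and PTPRC at 0.164 ± 0.0792 and 0.0201 ± 0.0233 CPM (SD, n = 4). CD14 passed the filter through INDY alone and no INDY library of PTPRC reached its level. CD3E, HBA1 and HBB had 3 or fewer estimated counts in every library.

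Summed over 9 skeletal muscle markers the level was 105 to 108, 84.3 to 89.1, 98.1 to 103 and 95.9 to 101 CPM in water, harmine, DMSO and INDY, most of it TNNT1, which fell with both compounds (-0.31 and -0.16). MYH3 rose with both (1.27 and 1.68), PAX7 fell with harmine (-0.49) and rose with INDY (0.33), and DES fell with harmine (-1.91). ACTA1 was at 0.0326 ± 0.0172 CPM in DMSO and 0.399 ± 0.155 with INDY, having passed the filter through INDY alone. MYF5 was at 0 and MYOD1 at 5 or fewer estimated counts. Summed over 8 epithelial markers the level was 670 to 720, 625 to 636, 617 to 646 and 663 to 719 CPM in the same order. Of these, CLDN4 fell with both compounds (-1.20 and -0.36), EPCAM fell (-0.59) and KRT8 rose (0.36) with INDY, and CDH1 was at 0.421 ± 0.0996 CPM in water and 0.108 ± 0.0482 with harmine, with no harmine library at the filter's level. The part of these markers in the results above was not tested. In such bulk RNA, a change in the number of expressing cells and a change in RNA per cell cannot be told apart.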

How the data were processed

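Poly(A) RNA of 16 U2OS libraries had been sequenced as stranded paired-end reads. The authors deposited estimated counts per gene, made with Salmon 1.1 on GENCODE 37 transcripts (GRCh38, genome decoys), summarized with tximport 1.14.2 and analysed with edgeR 3.28.1 (versions per the study's methods and the submitters' processing notes). Here edgeR's filterByExpr and TMM were applied to the counts after rounding, and they were fitted in 1 quasi-likelihood model of 4 groups (edgeR 4.0.16, R 4.3.3), with Benjamini-Hochberg adjustment over 20446 genes and a threshold of 0.01. CPM are TMM-scaled, and log2 CPM used a prior count of 2. Totals ran from 44301910 to 65889667, and the biological coefficient of variation was 0.0561. Intervals of counting error are not given, since estimated counts are not independent molecules. Salmon divides reads among near-identical transcripts by estimation, so stretches of 100 bases shared between transcripts were counted in GENCODE 44, and counts were also summed over related rows (DUX4 with its copies, TRIM43 with TRIM43B, TRIM48 with the TRIM49 genes, all PRAMEF genes), which share from much to no such stretches. The DUX4 row was matched to GENCODE 44 by symbol, as its identifier differs there, while the other 9 match. PRAMEF7 and PRAMEF8 are among other listed genes matched by symbol alone. Promoter windows came from RefSeq (GRCh38.p14).

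The 10 genes, the other lists and the comparisons were chosen with earlier results of these data known. Genes to be named were taken from all 10, for each list and compound the 3 called genes that changed most (every called gene where 5 or fewer were called), and the genes most correlated with the set. Other genes named are KHDC1L, ZNF705A, SMCHD1, DPPA2, the homeobox genes and the marker genes given as expressed or near 0. Family members are also named for shared sequence, for their part in a sum or for the motif. All of these were chosen after their values were seen. DESeq2 1.42.0, upper-quartile factors, no filter, a threshold of 0.05, a replicate block, fits to 8 libraries and leaving out each replicate were tried as alternatives. Scripts were tested on simulated data. Replicate numbers were not used to pair the samples in the main fit. Of 12 same-numbered pairs, 0 had a correlation of deviations over 0.1 (range -0.053 to 0.087). Such a cutoff cannot exclude a weak pairing or a shared batch.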

Additional observations from a re-analysis of the deposited data

Results flagged for a closer look

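Of 40 sets of 4 libraries (10 genes in 4 groups), 1 held a library far from the others by Dixon's criterion, which chance alone meets in about 1 in 20 sets. This was TRIM43 in harmine replicate 1, at 9.34 CPM against 6.33 to 6.83 CPM in the other harmine libraries.

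In 8 of the 10 genes all harmine libraries were below water and all INDY libraries above DMSO. Of all genes tested, 26.4% were so for harmine and 33.4% for INDY. The share with both was not counted, and nothing is read from the 8, which follow from how the genes were picked. The harmine minus INDY difference, on the log2 scale, was -3.04 in TRIM43, -2.95 in TRIM43B, -2.38 in TRIM48 and -2.59 in TRIM49. It was -1.85 in TRIM51, -3.09 in PRAMEF12, -2.40 in KDM4E and -2.69 in H3Y1. These differences chose the genes and were not tested.

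Among the named cleavage-stage genes outside the 10, the effects of the compounds differed by the interaction term of the edgeR fit in PRAMEF7 (-3.96, adjusted p = 5.87e-09) and PRAMEF8 (-3.78, adjusted p = 4.15e-12). MBD3L5 was also called (-2.73), but it passed the low-count filter only through groups where it was higher, so this call is no support for a difference. Among the named repressors the effects differed, by the same edgeR term, in L3MBTL2 (0.95, adjusted p = 5.49e-11), CHAF1B (0.74, adjusted p = 3.88e-07), CBX5 (-0.37, adjusted p = 3.41e-06) and CHAF1A (0.36, adjusted p = 8.35e-07). TRIM28 (-0.30, adjusted p = 2.25e-07) and SUV39H1 (0.24, adjusted p = 0.000335) differed by less. Over all genes 54.5% differed by this term, and dose and vehicle differed between the compounds.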

How the results depend on the processing

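The count of all genes called between DMSO and water was 877 and moved most, to 2384 at an adjusted p under 0.05, to 1592 with DESeq2 and to between 329 (without DMSO replicate 2) and 1015 when a replicate was left out. It was 356 without water replicate 1, 372 without water replicate 4, 347 without DMSO replicate 3 and 343 without DMSO replicate 4. With a replicate left out, all genes called ran from 8761 to 9156 for harmine, from 13037 to 13518 for INDY and from 10584 to 11306 for the difference of effects. Other cleavage-stage genes called ran from 24 to 30 for harmine and from 27 to 32 for INDY, and repressors from 20 to 21 and from 26 to 28. The median log2 difference of the 10 genes ran from -0.92 to -0.82 for harmine, from 1.59 to 1.70 for INDY and from -0.74 to -0.58 for DMSO against water. Of 384 alternative values of single genes among the 10, 373 moved by less than the spread between replicates, and the 11 that moved more all came from summing related rows, some of which (the PRAMEF genes with PRAMEF12) share no stretch. Sums chosen after seeing the data gave -1.04 and 1.61 for H3Y1 with H3Y2 and 0.08 and 2.30 for DUX4 without DUX4L26, for harmine and INDY. With INDY the sum of 5 MBD3L rows passed the threshold (1.12), while MBD3L5 (0.78) and MBD3L3 (0.1) alone did not. With harmine PRAMEF7 alone (-0.9) and its sum with PRAMEF8 (-0.49) passed it, and PRAMEF8 alone (-0.41) did not. With the replicate number as a block, 9475, 13423 and 802 genes were called for harmine, INDY and DMSO against water, and the 3 medians stayed at -0.86, 1.64 and -0.67. The low counts of DUX4, 5.5 to 176.3, limit its precision.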
